A study of Mus musculus with 11 samples.

Results

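The genes described here are 36 imprinted genes on a list drawn up for embryonic mesenchyme, from H19 and the Dlk1 to Dio3 cluster to Peg3, Mest, Ndn and Cdkn1c. They were taken by name from a table of 23286 rows, and all 36 were found, 35 through the RefSeq accessions of their rows and H19 through its position. The cells, known as MEPMs, were mouse palatal mesenchyme cells in primary culture, the precursors of the connective tissue of the roof of the mouth, from palates of embryos at E13.5. All cells were grown in 10% fetal bovine serum (FBS) and starved overnight in 0.1% FBS. There were 11 libraries of polyA RNA, 4 from starved cells, 4 from cells given 30 ng/mL PDGFA for 1 h, and 3 from cells that received FGF1 at 50 ng/mL together with heparin at 1 µg/mL, also for 1 h. No genetic change is named for any group, the strain is not given in the sources used here, and it is not stated there if replicates were from different litters or dishes. The table holds 1 FPKM (fragments counted for a gene, divided by transcript length in kilobases and by the size of the library) per row and group, with a lower and an upper bound, so the spread between single libraries was not available for any gene below.

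Imprinted genes are transcribed mainly from the copy inherited from a single parent, and the parental copies differ in DNA methylation that is set in the germ line and kept through development. They lie in clusters in which a control region sets the activity of several neighbours, often with a long noncoding RNA expressed from the parental copy opposite to the coding genes. Many are growth regulators that are abundant in embryo and placenta and decline after birth, and in mice the loss of one of them, Cdkn1c, gives a cleft palate. The values below are total levels. They do not resolve the parental copies, so the words maternal and paternal stand for the usual annotation in mouse and not for a measurement.

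Several of the noncoding members are host transcripts of small RNAs, and the row of Mirg, which had the largest value relative to starved cells of all members after PDGFA, also carries the accessions of the miRNA genes Mir369, Mir410 and Mir412, while the row of Meg3 carries that of Mir770. It also carries an accession that RefSeq assigns to Mir1906-2 on the X chromosome, so what the row of Meg3 holds is not fully clear. The mature arms of Mir369, Mir410, Mir412 and Mir770 are shown because they are what the 2 rows share with the miRNA cluster. They are RefSeq sequences of build GRCm38.p6, 5′ to 3′, with the seed (bases 2 to 8) in capitals, and miR-494-5p is added because it shares the seed of miR-410-5p.
mmu-miR-369-5p (chr12:109743431-109743452, plus strand): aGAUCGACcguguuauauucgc
mmu-miR-369-3p (chr12:109743466-109743486, plus strand): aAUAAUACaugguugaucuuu
mmu-miR-410-5p (chr12:109743729-109743749, plus strand): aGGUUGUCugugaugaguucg
mmu-miR-494-5p (chr12:109715334-109715355, plus strand): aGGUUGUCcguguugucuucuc
mmu-miR-410-3p (chr12:109743764-109743784, plus strand): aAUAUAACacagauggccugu
mmu-miR-412-5p (chr12:109743303-109743325, plus strand): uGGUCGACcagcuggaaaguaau
mmu-miR-412-3p (chr12:109743340-109743359, plus strand): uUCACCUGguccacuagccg
mmu-miR-770-5p (chr12:109563710-109563731, plus strand): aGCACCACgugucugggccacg
mmu-miR-770-3p (chr12:109563744-109563765, plus strand): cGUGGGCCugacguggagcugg
The RefSeq table gave 103 mature arms for 55 miRNA genes named in rows between Dlk1 and Dio3. They held 94 different seeds, and only 9 of these seeds occurred in more than 1 arm, in 18 arms in all. A closely related pair with the seed AUGUAAC differs in only a few bases outside it.
mmu-miR-379-3p (chr12:109709102-109709123, plus strand): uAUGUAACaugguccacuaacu
mmu-miR-411-3p (chr12:109710225-109710246, plus strand): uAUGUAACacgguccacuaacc

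The labelled cell type was checked against its markers. Of 10 palatal mesenchyme markers, 8 were at or above 1 FPKM in starved cells. The highest were the collagen gene Col1a2 at 2025 FPKM, Prrx1 at 233, Twist1 at 60.1 and Msx1 at 59.8. The others were Shox2 at 18.6, Pax9 at 13.9, Pdgfra at 3.87 and Osr2 at 3.73. Tbx22 was under 0.1 FPKM in every group, and Col1a1 was listed at 0 in all 3 groups as 1 of 2 rows with a failed estimate. Summed FPKM in starved cells was 0.472 over 5 epithelial markers, 3.47 over 4 endothelial markers and 0.102 over the 2 blood and macrophage markers that were found. Over 3 Schwann and crest markers it was 1.86. It was 91.6 over 3 cartilage markers, with Col2a1 at 74.9 and Sox9 at 15.7, and 37.1 over 4 neuronal markers, nearly all of it from Tubb3 at 37.0. As a yardstick for a response, the immediate early gene Egr1 stood at 11.4 FPKM in starved cells, 49.7 with PDGFA and 116 with FGF1, with bounds apart in all 3 comparisons. Fos stood at 2.62, 6.76 and 10.2 FPKM, with bounds apart for FGF1 against starved cells only.

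A few of the imprinted genes were among the most abundant transcripts of the starved cells. In starved cells 27 of the 36 members (75%) were at or above 1 FPKM, against 49.1% of all rows. At or above 10 FPKM there were 17 members (47.2%, against 27.7% of all rows), and at or above 100 FPKM there were 6 members (16.7%, against 2.83%). The 6 are H19, Gnas, Grb10, Meg3, Mest and Plagl1. By the lower bound, 22 members were at or above 1 FPKM and 13 at or above 10. These shares are descriptions, since the list was drawn up with embryonic mesenchyme in view. Together the members held 0.832% of the summed FPKM of starved cells, 0.893% with PDGFA and 0.778% with FGF1, and H19 and Gnas alone made up 63.3%, 65.5% and 64.1% of that.

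H19 and Gnas stood far above the rest. H19, a maternally expressed long noncoding RNA next to the growth factor gene Igf2 (chr7:142575532-142578146, mm10), had 1083 FPKM in starved cells (bounds 703 to 1461), 1348 with PDGFA (488 to 2206) and 1005 with FGF1 (617 to 1392). Gnas encodes the stimulatory G protein alpha subunit from a locus with several promoters (chr2:174281237-174346742), and it had 951 FPKM (682 to 1220), 1120.0 (429 to 1812) and 1060.3 (667 to 1454) in the same order. They ranked 23rd and 28th of all 23286 rows in starved cells, and the bounds of the 3 groups overlapped widely for both. Igf2 itself, which was not on the list of 36, had 1855 FPKM in starved cells (953 to 2758), with rank 11. The order of H19 and Gnas could not be told apart by their bounds, while those of Gnas and of the next member, Grb10, lay apart.

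**Figure D1:**
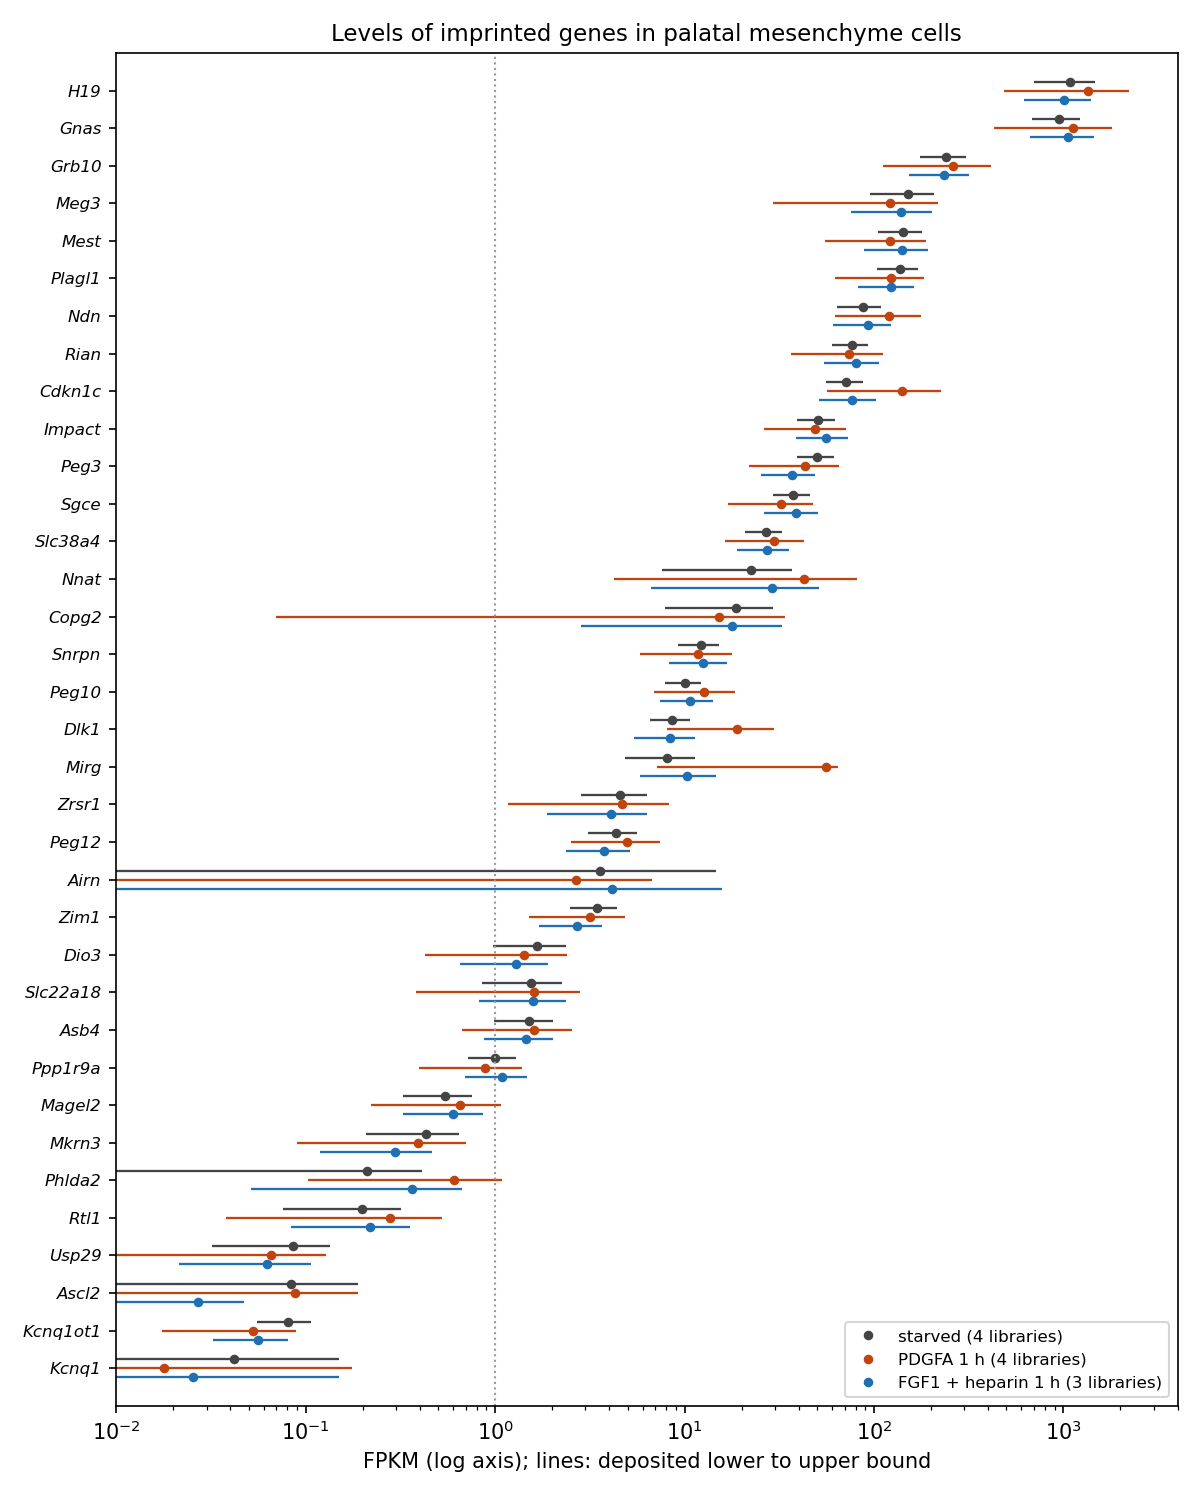
FPKM of 35 imprinted genes on a log axis in starved cells (grey), PDGFA cells (red) and FGF1 plus heparin cells (blue), with lines from the deposited lower to upper bound; lines that reach the left edge go on to a bound under 0.01, and Rasgrf1, listed at 0 in starved cells, is left out. Levels run from 1083 FPKM for H19 in starved cells to 0.0419 for Kcnq1, the dotted line marks 1 FPKM, and the 3 groups of each gene overlap.

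Growth regulators followed. Grb10, an adaptor that dampens insulin and IGF receptor signalling and is expressed from the maternal copy in most tissues (chr11:11930499-12037420), had 241 FPKM in starved cells (175 to 308), 262 with PDGFA (112 to 412) and 235 with FGF1 (153 to 318). Mest, a paternally expressed hydrolase-fold protein gene that is a classical mesoderm transcript, had 142 FPKM (106 to 179), 122 (55.3 to 188) and 141 (88.4 to 193). Plagl1, a zinc finger transcription factor whose product acts on other imprinted genes (chr10:13090788-13131695), had 137 FPKM (103 to 171), 123 (62.5 to 183) and 122 (82.6 to 162). The values of these genes in treated cells lay close to those of starved cells, all within the starved bounds.

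Members between 10 and 100 FPKM had varied roles. Ndn encodes necdin, a MAGE family protein that restrains cell division, and had 88.0 FPKM in starved cells (63.8 to 108), 119.9 with PDGFA (62.5 to 177) and 92.5 with FGF1 (60.6 to 123). Impact, an inhibitor of the GCN2 stress pathway, had 50.9 FPKM (39.4 to 62.4), 49.04 (26.4 to 71.6) and 55.9 (38.6 to 73.1). Peg3, a large zinc finger protein gene (chr7:6705960-6730419), had 50.2 FPKM (39.0 to 61.4), 43.5 (21.8 to 65.1) and 36.9 (25.2 to 48.6). The PDGFA value of Ndn lay above its starved bounds, and the FGF1 value of Peg3 lay below its own, but in neither case were the bounds of the groups apart.

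Sgce, which encodes a sarcoglycan of the cell membrane (chr6:4674350-4747204), had 37.6 FPKM in starved cells (29.3 to 45.9), 32.3 with PDGFA (17.0 to 47.6) and 38.5 with FGF1 (26.3 to 50.8). The amino acid transporter gene Slc38a4 (chr15:96994823-97055956) had 26.8 FPKM (20.8 to 32.8), 29.6 (16.4 to 42.9) and 27.4 (18.97 to 35.8). Snrpn, which encodes a spliceosomal core protein (chr7:59982501-60140219), had 12.2 FPKM (9.26 to 15.2), 11.8 (5.83 to 17.8) and 12.6 (8.28 to 16.9). For these 3 genes each treated value lay inside the starved bounds. The row of Snrpn also carries the gene Snurf. Of the 31-base words of the longest Snrpn transcript, 28.2% also occur in transcripts under other gene names, Snurf among them. How many of these words lie at other loci was not tested, so the level of Snrpn is uncertain. For each other member the share of such words was under 4%.

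Copg2, a coatomer subunit gene that overlaps the end of Mest on the other strand, had 18.6 FPKM in starved cells (7.87 to 29.4), 15.2 with PDGFA (0.0701 to 33.8) and 17.8 with FGF1 (2.84 to 32.7). Peg10, a gene derived from a retroelement and known for its role in placenta (chr6:4747306-4760516), had 10.1 FPKM (7.89 to 12.2), 12.7 (6.92 to 18.4) and 10.7 (7.42 to 14.0). Nnat, a small membrane proteolipid gene (chr2:157556362-157566361), had 22.3 FPKM (7.63 to 37.0), 42.7 (4.25 to 81.4) and 28.8 (6.65 to 51.0). The bounds of Nnat and Copg2 were wide, with half-widths of 65.8% and 57.8% of the value in starved cells. Each shares its locus in the table with a second gene: Nnat lies within Blcap, at 37.2 FPKM in starved cells, and Copg2 shares 1 locus with Mest. Whether counting used the strand is not given in the sources used here, so reads of such partners cannot be told apart here. The antisense rows Peg3os, at 3.39 FPKM in starved cells, and Gnasas1, at 0.245, lie over Peg3 and Gnas in the same way.

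In the Dlk1 to Dio3 cluster, which spans 828 kb of chromosome 12, the maternally expressed noncoding RNAs Meg3 and Rian stood above the paternally expressed coding genes Dlk1, Dio3 and Rtl1 in starved cells. The bounds of Mirg lay above those of Dio3 and Rtl1 and overlapped those of Dlk1. Meg3 (chr12:109540996-109571729) had 152 FPKM in starved cells (95.2 to 208), 122 with PDGFA (29.3 to 218) and 139 with FGF1 (75.3 to 203). Rian, the host of a series of C/D box snoRNAs (chr12:109603945-109661711), had 76.5 FPKM (60.0 to 92.9), 73.7 (36.4 to 111) and 80.7 (54.7 to 107). Dlk1, a membrane protein with EGF repeats that holds back adipocyte differentiation (chr12:109452823-109463336), had 8.58 FPKM (6.54 to 10.6), 18.9 (8.11 to 29.7) and 8.40 (5.40 to 11.4). The bounds of Meg3 and Rian in starved cells lay wholly above those of Dlk1. Dlk1 was at 0.0566 times the level of Meg3, whose row begins 77.7 kb beyond the end of Dlk1.

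Mirg (chr12:109734981-109749457) had 8.08 FPKM in starved cells (4.85 to 11.4), 55.9 with PDGFA (7.13 to 64.3) and 10.3 with FGF1 (5.83 to 14.7). The PDGFA value was the only one well outside the other groups, and it sat near the top of an interval whose lower end reached into both. Dio3, an enzyme that inactivates thyroid hormone, had 1.67 FPKM in starved cells (0.979 to 2.37), 1.41 with PDGFA and 1.28 with FGF1. Rtl1, a retroelement-derived gene that is needed in placenta, had 0.199 FPKM in starved cells (0.0759 to 0.319), 0.277 with PDGFA and 0.219 with FGF1. Within this cluster the members thus ranged from 0.199 to 152 FPKM in the same cells.

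The cluster holds 65 rows of the table, of which 6 are members and 56 are miRNA or snoRNA genes (49 and 7). Of these 56, 47 were listed at 0 in every group, and 9 (16.1%) had a value with PDGFA only. Outside the cluster, 64 of 626 such rows (10.2%) had a value with PDGFA only, 4 with starved cells only and 2 with FGF1 only. The snoRNAs inside Rian that were listed only with PDGFA were AF357426 at 98.3 FPKM, AF357425 at 42.9, and DQ267100 and DQ267102 at 37.6 each, all with a lower bound of 0. Inside Mirg the same held for Mir3072 at 249.8 FPKM (upper bound 74.3) and Mir409 at 23.6, and close to its start for Mir485 at 33.2 (upper bound 2.61). With Mir3070b, 3 of the 9 values lay above their own upper bound. Mature miRNAs carry no polyA tail, and such short rows are listed here and not compared. Mirg carries 3 miRNA accessions in its own row, and the part these have in its PDGFA value was not tested.

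**Figure D2:**
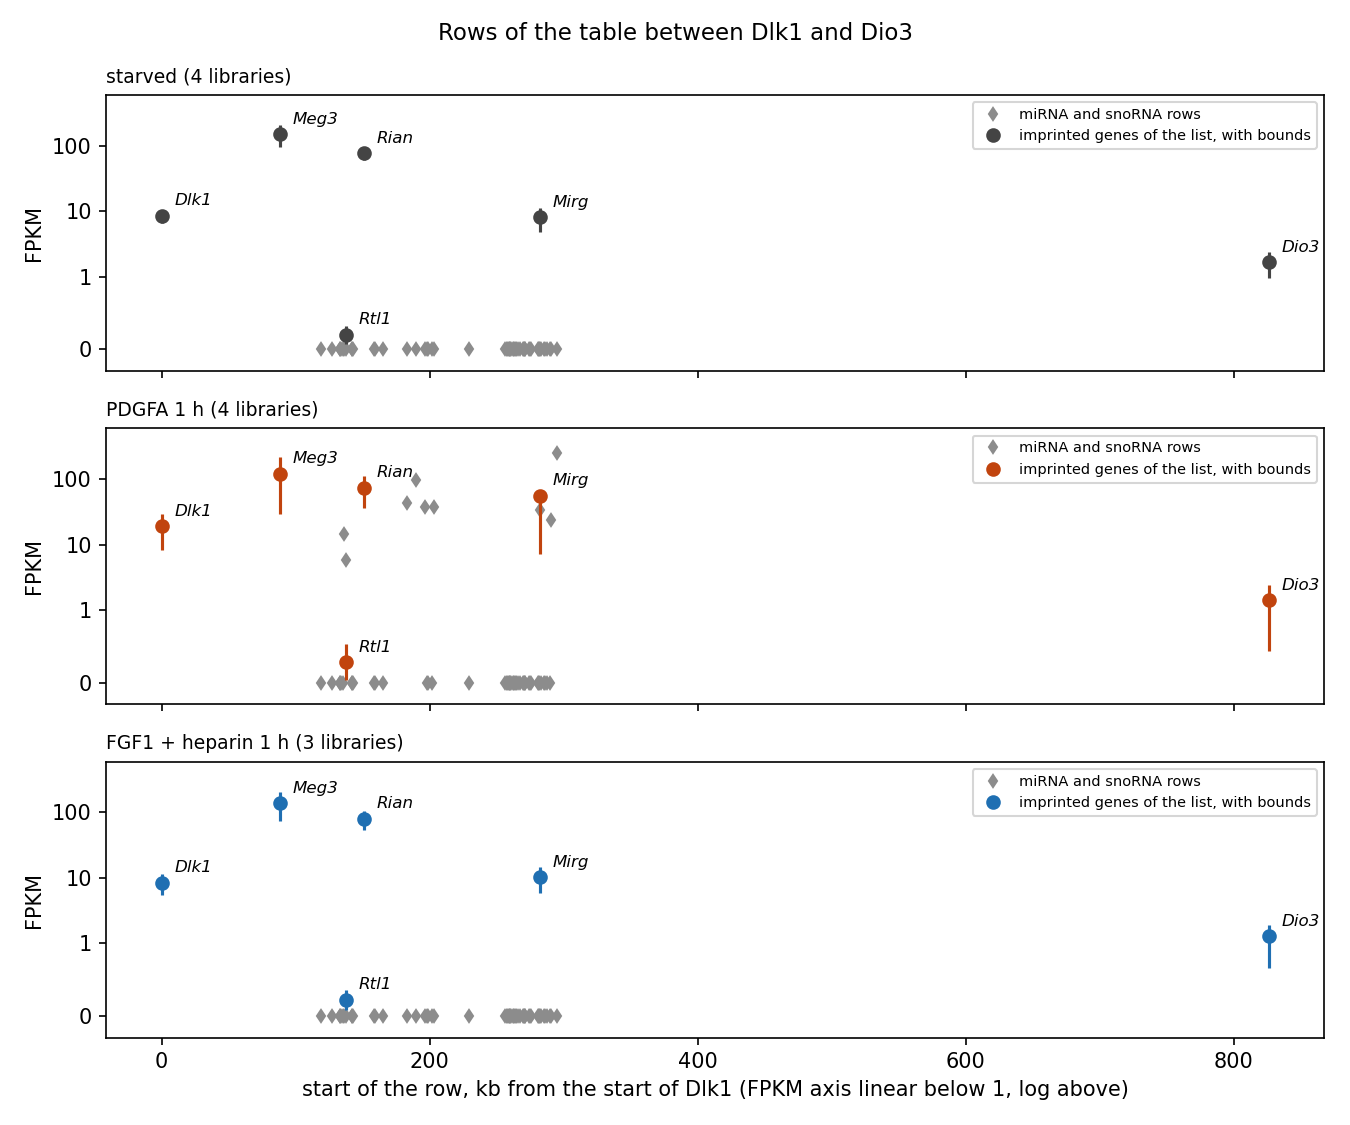
FPKM of the rows between Dlk1 and Dio3 by the distance of their start from the start of Dlk1, in 1 panel per group; circles are the 6 imprinted genes of the list with their deposited bounds and diamonds are miRNA and snoRNA rows. The diamonds lie at 0 in starved and FGF1 cells, 9 of them lie above 0 with PDGFA, and Mirg is the circle with the most different value there.

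Neighbours within a cluster differed widely in level. In the Peg3 cluster the rows of Peg3 and of Usp29, a ubiquitin protease gene expressed from the same paternal copy, lie 0.321 kb apart on opposite strands. Peg3 stood at 585 times the level of Usp29, which had 0.0857 FPKM in starved cells (0.0322 to 0.134). Zim1, the maternally expressed zinc finger gene beyond Peg3, had 3.45 FPKM in starved cells (2.49 to 4.41), 3.19 with PDGFA (1.51 to 4.85) and 2.70 with FGF1 (1.71 to 3.68). In the Ndn cluster, the MAGE family gene Magel2 begins 27.1 kb beyond Ndn on the same strand and had 0.545 FPKM (0.327 to 0.760), so that Ndn stood at 162 times its level. The ubiquitin ligase gene Mkrn3 had 0.432 FPKM in starved cells, 0.393 with PDGFA and 0.296 with FGF1. Peg12, a Frat family gene, had 4.37 FPKM (3.09 to 5.63), 4.99 (2.52 to 7.43) and 3.76 (2.37 to 5.15), so that its 3 groups overlapped. By contrast Sgce and Peg10, whose divergent starts are 0.101 kb apart, differed only 3.74-fold in the same cells.

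The sequences at the starts of Peg3, Usp29, Ndn and Magel2 are shown because these are the pairs with the largest differences in level among the neighbours above. All are RefSeq sequences of build GRCm38.p6, on the plus strand, 5′ to 3′, with CpG dinucleotides in capitals. The stretch between the starts of Peg3 and Usp29 (chr7:6730420-6730582) is 163 bases long, since RefSeq places the start of Usp29 closer to Peg3 than its row in the table does, and it holds 5 CpG at a GC content of 62.0%.
Peg3 to Usp29: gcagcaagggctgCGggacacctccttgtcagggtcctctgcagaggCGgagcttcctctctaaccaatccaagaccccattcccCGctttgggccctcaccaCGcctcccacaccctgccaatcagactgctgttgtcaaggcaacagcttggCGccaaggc
The 250 bases before the start of Ndn (chr7:62348027-62348276) hold 5 CpG, and those before the start of Magel2 (chr7:62376729-62376978) hold 7.
Ndn upstream: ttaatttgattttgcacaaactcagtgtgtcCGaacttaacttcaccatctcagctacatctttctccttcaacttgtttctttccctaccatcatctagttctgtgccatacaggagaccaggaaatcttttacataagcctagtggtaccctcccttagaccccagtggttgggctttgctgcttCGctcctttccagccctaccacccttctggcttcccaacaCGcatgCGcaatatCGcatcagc
Magel2 upstream: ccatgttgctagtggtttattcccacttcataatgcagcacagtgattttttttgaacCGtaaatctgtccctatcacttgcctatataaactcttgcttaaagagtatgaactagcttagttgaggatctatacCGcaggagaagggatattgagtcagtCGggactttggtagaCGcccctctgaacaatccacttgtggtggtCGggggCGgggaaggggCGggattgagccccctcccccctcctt
From the RefSeq promoter table (windows of 300 bases, 250 of them before the start), 43 windows for 29 members were used, without Impact. Their median was 11 CpG per window, from 0 before Rian to 48 before Ppp1r9a, against 7 over all 32851 windows. The hexamer TGCCGC, the core letters bound by the imprint maintenance factor ZFP57 when methylated, was found on either strand in 9 of the 43 windows (20.9%), at 8 genes, and in 11.6% of all windows. This motif itself holds a CpG, and the part that the higher CpG number of the member windows has in its share was not tested. Zfp57 itself, named here because of that motif, had 17.5 FPKM in starved cells (12.8 to 22.2). The pentamer GCCAT, the core letters of YY1 sites such as those known from the Peg3 region, was found on either strand in 41.9% of the member windows and in 40.5% of all. Several genes have more than 1 window and some of these overlap, so the windows are not independent.

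Among the 6 members of the list in the Kcnq1 cluster a single gene was abundant. Cdkn1c, a maternally expressed inhibitor of cyclin-dependent kinases (chr7:143458339-143461050), had 71.6 FPKM in starved cells (55.7 to 87.5), 141 with PDGFA (56.6 to 225) and 76.6 with FGF1 (51.0 to 102). Slc22a18, a transporter gene that begins 12.7 kb beyond it, had 1.55 FPKM in starved cells, 1.60 with PDGFA and 1.59 with FGF1, so that Cdkn1c stood at 46.2 times its level. The placental growth regulator Phlda2, a further 2.21 kb away, had 0.210 FPKM in starved cells (0 to 0.413), 0.610 with PDGFA (0.103 to 1.09) and 0.364 with FGF1. Ascl2, a trophoblast transcription factor, had 0.0842 FPKM, the potassium channel gene Kcnq1 had 0.0419, and Kcnq1ot1, the paternally expressed noncoding RNA of the cluster, had 0.0811 in starved cells. All of these stayed under 1 FPKM with either ligand. Of the 6 members in this cluster 2 were at or above 1 FPKM.

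The remaining members were low. Zrsr1, a splicing factor gene inside Commd1, had 4.59 FPKM in starved cells (2.86 to 6.32), 4.70 with PDGFA and 4.09 with FGF1. Airn, the paternally expressed noncoding RNA that silences Igf2r in cis, had 3.59 FPKM (0 to 14.7), 2.68 (0 to 6.70) and 4.13 (0 to 15.8), so that its level is poorly known. The row of Airn shares its locus with Igf2r, at 148 FPKM. Asb4, an ankyrin repeat protein gene, had 1.51 FPKM in starved cells, 1.61 with PDGFA and 1.45 with FGF1. Ppp1r9a, which encodes the actin-binding protein neurabin, had 1.00, 0.888 and 1.08 FPKM. Rasgrf1, a Ras activator known from neurons, was listed at 0 in starved and PDGFA cells and at 0.00289 with FGF1. In all, 9 members were under 1 FPKM in every group and were not compared.

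By parental annotation the members did not split into a high and a low set. Of 14 maternally expressed members 11 were at or above 1 FPKM in starved cells, with a median of 5.76, and of 21 paternally expressed members 15 were, with a median of 8.58. Gnas, with transcripts of either kind, stands apart from both. In the order of levels, 2 of the 35 neighbouring pairs had bounds that lay apart, Gnas above Grb10 and Zim1 above Dio3. Among the 17 members at or above 10 FPKM, bounds lay apart for 106 of 136 pairs, so the order holds in its broad steps and not between neighbours.

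A comparison of 2 groups was called where their bounds lay wholly apart and each value lay inside its own bounds. It was made for rows with at least 1 FPKM in at least 1 group, which 11702 rows and 27 members passed. With PDGFA against starved cells 0 of the 27 members were called, beside 36 of all rows (0.308%), all of them higher. The median log2 difference of FPKM + 0.5 was 0.03 over the members and −0.003 over all compared rows, with 14 members above 0 and 13 below. The PDGFA value lay inside the starved bounds for 20 of the 26 members that were at or above 1 FPKM in both groups. This was not counted over all rows. With so few rows called, a count of 0 is near the background. The bounds were wide, and their median half-width over the members was 27.7% of the value in starved cells, 55.3% with PDGFA and 36.5% with FGF1.

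The 4 members that stood more than 1.5-fold above starved cells with PDGFA were Mirg, Dlk1, Cdkn1c and Nnat, and none stood as far below. Mirg was at 6.92 times its starved value, and its bounds allow 0.626 to 13.3 times. Dlk1 was at 2.20 times (0.763 to 4.54), Cdkn1c at 1.97 times (0.647 to 4.05) and Nnat at 1.91 times (0.115 to 10.7). Of all rows at or above 1 FPKM in both groups, 343 (3.04%) stood as far above and 78 as far below. Each of the 4 ranges includes 1, so at this precision these differences were not larger than the bounds. Among the other members the values ran from 0.747 times for Airn to 1.36 times for Ndn (0.577 to 2.78).

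Transcript GC content moved with the PDGFA values. Over 11517 compared rows the rank correlation of GC content with the log2 difference between PDGFA and starved cells was 0.604, against 0.181 for FGF1, and over the 27 members it was 0.364 and −0.002. The points share the same 3 group values and differ in level and length, and the correlations are descriptions. Of the 4 members with the highest ratios of PDGFA to starved cells, Cdkn1c has 59.4% GC, Nnat 57.0%, Mirg 54.4% and Dlk1 53.6%. The median was 46.8% over the compared members and 50.3% over all rows, whose 75th percentile was 55.1%. Besides Cdkn1c and Nnat, further compared members lay above 55.1% GC. Their log2 differences were −0.18 for Dio3, 0.04 for Slc22a18, 0.17 for Peg12, 0.24 for Gnas and 0.32 for H19. A smooth trend on GC content, length and level was then removed. The log2 differences went from 2.72 to 2.60 for Mirg and from 1.09 to 1.01 for Dlk1. For Cdkn1c they went from 0.97 to 0.69 and for Nnat from 0.92 to 0.73. So the order of the first 2 was kept, while Nnat then stood above Cdkn1c. The same step took Gnas to 0.01, Peg12 to 0.04 and H19 to 0.15. Dio3 went to −0.31 and Slc22a18 to −0.08.

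**Figure D3:**
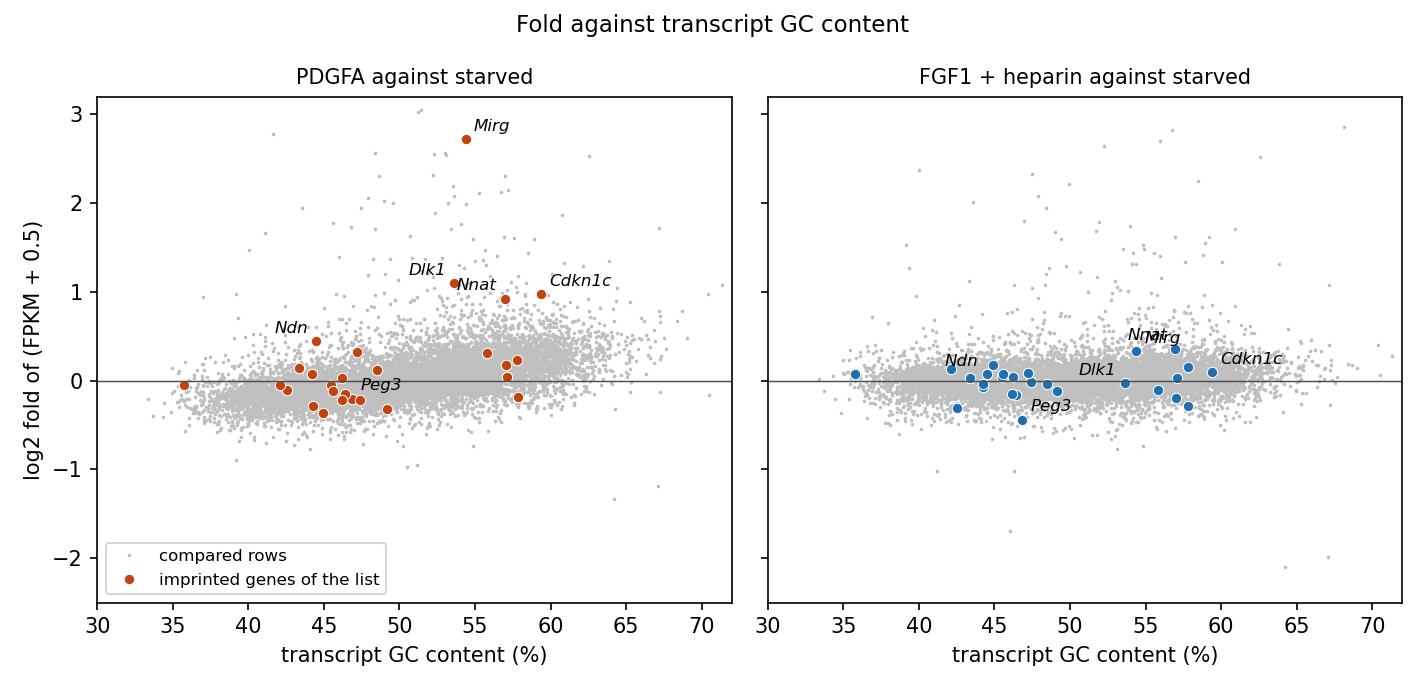
Log2 difference from starved cells, on FPKM + 0.5, against transcript GC content for PDGFA (left) and FGF1 plus heparin (right); small grey points are compared rows and large points are the 27 compared imprinted genes. The grey cloud slopes upward with GC content for PDGFA, Mirg, Dlk1, Cdkn1c and Nnat lie above most of it there, and the same genes lie between −0.03 and 0.36 with FGF1.

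Skeletal muscle markers stood higher with PDGFA as well. The summed level of 5 markers was 21.2 FPKM in starved cells, 97.3 with PDGFA and 28.1 with FGF1, none of them at 0 in any group. Most of it was Acta1, an actin gene, at 17.2, 87.5 and 24.6 FPKM, which was the only one of the 5 called with PDGFA. The others were lower but also stood higher with PDGFA. Mylpf had 2.49 FPKM in starved cells and 5.30 with PDGFA, and Tnni1 had 0.704 and 2.68. The defining regulators were low: Myod1 had 0.0712 and 0.258, and Myog had 0.687 and 1.56. Over the 4 compared markers the median log2 difference with PDGFA was 1.18, and 1.13 with the trend removed. The genes on the Y chromosome stood lower with PDGFA: of the 4 measured, Eif2s3y had 20.5 FPKM in starved cells, 13.8 with PDGFA and 22.1 with FGF1, and Ddx3y had 18.3, 13.48 and 22.3. Kdm5d had 3.68, 2.22 and 3.58 FPKM and Uty 3.47, 2.19 and 3.61, while Xist had 7.48, 8.25 and 6.12, and none of these 5 was called in any comparison. Over these 5 the median log2 difference with PDGFA was −0.56, and −0.33 with the trend on GC content, length and level removed. The part that such differences between the groups have in the values of Mirg, Dlk1, Cdkn1c and Nnat was not tested. In bulk cultures a different number of cells of a type and a different RNA level per cell cannot be told apart.

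With FGF1 and heparin the members lay closer to their starved levels than with PDGFA, and so did the compared rows as a whole. The quartiles of the log2 difference over all compared rows were −0.07 and 0.10 with FGF1, and −0.14 and 0.16 with PDGFA. Again 0 of the 27 were called, beside 65 of all rows (0.555%), 63 higher and 2 lower. The median log2 difference was 0.03 over the members and 0.02 over all rows, with 14 members above 0 and 13 below. No member differed by more than 1.5-fold in either direction. Of all compared rows at or above 1 FPKM in both groups, only 142 stood as far above and 46 as far below. A count of 0 members is thus near the background. The FGF1 value lay inside the starved bounds for 26 of 27 members, a count that was not made over all rows. For 24 of the 27, the bounds keep the difference within 4-fold both ways, and for 9 within 2-fold.

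Peg3 was the exception. Its FGF1 value was 0.735 times its starved value (0.411 to 1.25), or −0.44 on the log2 scale, and it was the 1 member called when each value had only to lie outside the bounds of the other group. That wider rule called 206 rows (1.76%), 83 of them lower (0.709%). Its neighbour Zim1 was at 0.782 times (0.388 to 1.48) and Dio3 at 0.768 times (0.276 to 1.94), and both values lay inside their starved bounds. At the other end Nnat was at 1.29 times and Mirg at 1.27 times (0.512 to 3.04). Cdkn1c and Dlk1, which stood above starved cells with PDGFA, were at 1.07 and 0.978 times with FGF1, close to the starved level.

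**Figure D4:**
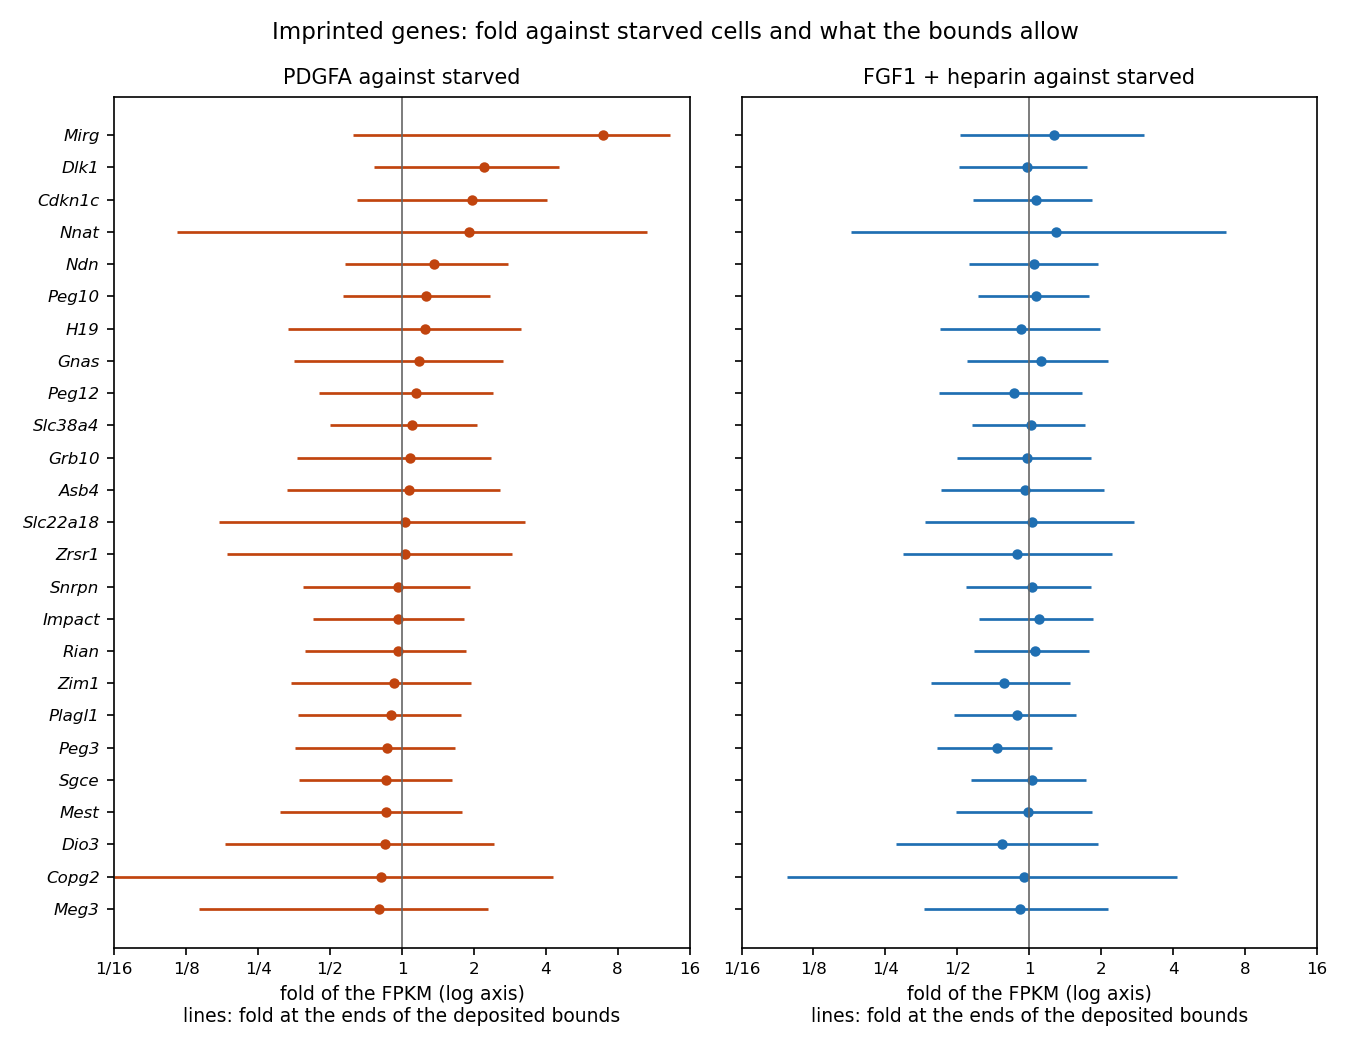
Fold of the FPKM against starved cells on a log axis for the 25 imprinted genes at or above 1 FPKM in all 3 groups with the exception of Airn, for PDGFA (left) and FGF1 plus heparin (right); lines run from the lowest to the highest fold that the deposited bounds allow, and that of Copg2 goes on beyond the left edge. Every line crosses 1, Mirg, Dlk1, Cdkn1c and Nnat lie farthest to the right with PDGFA, and with FGF1 the points lie between 0.735 and 1.29.

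Set directly against PDGFA, FGF1 gave lower values for more members than it gave higher ones, 18 against 9, while 53.1% of all compared rows were higher. Both comparisons with starved cells share those cells, and the direct one shares the PDGFA and FGF1 values with them. No member was called (0 of 27), beside 14 of all rows (0.12%). The median log2 difference was −0.11 over the members and 0.01 over all rows. Mirg was at 0.184 times its PDGFA value (0.0907 to 2.06), Dlk1 at 0.444 times (0.182 to 1.41) and Cdkn1c at 0.544 times (0.226 to 1.81). Airn, with lower bounds of 0, was the member with the highest value, at 1.54 times. The ranges of the first 3 include 1. With the trend on GC content, length and level removed the median of the members was −0.21.

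Other imprinted genes and the factors that maintain imprints were measured in the same way. Of 61 further imprinted genes 57 were found, 38 at or above 1 FPKM in starved cells, and 0 of the 39 compared were called in any of the 3 comparisons. Beside Igf2 the highest were Cd81 at 398 FPKM, the IGF2 receptor gene Igf2r at 148 and H13 at 62.1. Tssc4 was the only gene of that list more than 1.5-fold above starved cells with PDGFA, and it was named for this value. It had 32.3 FPKM in starved cells (24.9 to 39.6) and 54.0 with PDGFA (24.3 to 83.7), so that the bounds overlapped. Median log2 differences of the 39 were −0.04 with PDGFA and 0.02 with FGF1.

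All 26 imprint maintenance factors were found, and 22 were at or above 1 FPKM in starved cells. The highest were the KAP1 corepressor gene Trim28 at 83.3 FPKM, the histone methyltransferase gene Ehmt2 at 47.6, the cohesin subunit gene Rad21 at 39.4 and the Polycomb gene Eed at 28.3. Dnmt3l, Ctcfl and Dppa3, which act mainly in germ cells and early embryos, were under 0.1 FPKM in every group. None of the 22 was called in any comparison. With each ligand 6 of them stood above starved cells and 16 below, with median log2 differences of −0.15 for PDGFA and −0.12 for FGF1, beside −0.003 and 0.02 over all compared rows, of which 49.3% and 56.0% stood above 0. With the trend on GC content, length and level removed the medians of the 22 were −0.06 and −0.10. Both comparisons share the same starved values, so the 2 splits are not independent. For FGF1 against PDGFA 13 stood above 0 and 9 below.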

How the data were processed

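PolyA RNA of 11 libraries was sequenced by the authors. The submitters' processing notes name CASAVA, TopHat and Cuffdiff and the build mm10. Their versions were not given in the sources used here. In the deposited table FPKM, 1 per row and group, came with bounds on either side, per the file headers, at a confidence level that is not stated. Depth is unknown, and with 1 value per group no test between replicates could be run, so limma was not used and no p-value is given. Because FPKM is relative to the whole library, a gene can move when others do.

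Rows were named through the RefSeq table of GRCm38.p6, the same build as mm10: 22992 by accession, 62 by position within 5 bases, and 232 had no name. A row was compared if it reached 1 FPKM in any group and had no failed estimate (11702 rows; 2 had failed). Log2 differences used FPKM + 0.5, so that changes of low genes are understated. Fold ranges divide opposite ends of the bounds, for genes at or above 1 FPKM in both groups. GC content and length came from GENCODE M21 transcripts, for 99.4% of compared rows and all 36 members. The members and lists were chosen with earlier results of these data known. All 36 members could be named, with full values from 10 FPKM or for the 4 largest differences per comparison. Of other lists, called rows and up to 4 of the highest are given. More rows of the marker lists were added. Scripts were tested on simulated data and run with matplotlib 3.10.9, statsmodels 0.14.6, pandas 2.3.3, numpy 2.4.6, scipy 1.17.1 and Python 3.11.15.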

Additional observations from a re-analysis of the deposited data

How the results depend on the processing

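No paired analysis was possible because the table holds 1 value per group, and for the same reason no library could be left out. Alternatives covered the minimum FPKM, the scaling, the pseudocount, the GC, length and level trend and the rule for a call. The count of members called moved in 1 case: with each FPKM outside the other interval, 1 member (Peg3) was called for FGF1 against starved cells instead of 0, and the cause is that rule's wider limits. A z value from the bounds, taken as 95% bounds, called 0 members. The median log2 difference of the members ran from −0.05 to 0.12 for PDGFA, −0.04 to 0.04 for FGF1 and −0.21 to −0.02 for FGF1 against PDGFA. Leaving out Mirg, chosen after seeing the data, gave −0.01, 0.01 and −0.11. Of 486 single-gene values under alternatives none shifted by as much as the log2 half-width of the bounds of the first-named group. Those bounds were wide, so this was a loose limit. In the same set 8 differences over 0.1 in size reached 0 or changed sign. These were H19, Grb10 and Gnas with PDGFA and Gnas with FGF1 under quantile normalization, and, with the trend removed, Zim1 and Ppp1r9a with PDGFA and Rian and Dio3 for FGF1 against PDGFA.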
